A study of Mus musculus with 9 samples.

Results

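The sites described here had a GR peak after CORT that overlapped an MR peak called after washout but none called after CORT. They were the MACS2 peaks of the GR CORT list that shared at least 1 bp with an MR washout peak and no base with any MR CORT peak, on chromosomes 1 to 19 and X. The rule found 234 sites among 10567 GR CORT peaks (2.21%, 95% Wilson interval 1.95 to 2.51). They made up 5.68% (5.01 to 6.42) of the 4123 GR CORT peaks that had no MR CORT peak. The sites were thus chosen by the GR CORT, MR CORT and MR washout calls, so those calls, the strengths of their peaks and the distances to MR CORT peaks are given as a description with no test.

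The data are ChIP-nexus, a form of chromatin immunoprecipitation in which an exonuclease trims the DNA towards the bound protein, from N2A (Neuro2A) cells, a mouse neuroblastoma line. All cells were transiently transfected with both EGFP-GR and mCherry-MR, and GR was precipitated through the GFP tag and MR through RFP. The 3 treatments were vehicle, 100 nM CORT (corticosterone) for 20 min, and 100 nM CORT for 20 min followed by 40 min without steroid. Each had a GR, an MR and an input sample, 9 in all. Replicates were combined into 1 list per receptor and treatment, so there is no spread between replicates. Every interval or test below treats single peaks as units and compares these lists, not the treatments. The paper reports that after CORT far fewer GR than MR sites were called in most replicates. Those GR sites were a small part of its combined GR list. Whether the sites described here were among them was not tested. The receptors were driven from plasmids in cells that express some GR but no MR of their own. The study's methods describe the tagged receptors as rat and the deposited design as mouse, so their species was not settled.

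On chromosomes 1 to 19 and X, the vehicle lists held 50 GR and 52 MR peaks, the CORT lists 10567 and 14560, and the washout lists 229 and 4856. Read counts per peak were not part of the lists and library depths were not used here, so a site without an MR CORT peak was one that was not called, not one shown to be free of MR. Peak strength is given as MACS2's −log10 p.

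GR and MR are ligand-activated transcription factors of the nuclear receptor family, and their DNA-binding domains are nearly the same. Both bind as dimers to the glucocorticoid response element (GRE), a palindrome of 2 half-sites around a spacer. MR holds corticosterone with higher affinity than GR, so in the brain MR is occupied at resting hormone levels while GR is filled at the peaks of secretion.

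The DNA under the MR washout summits shows what these sites looked like. The sequences below are the best matches to the GRE consensus, AGAACA and TGTTCT with 3 bases between them, within 100 bp of the MR washout summit, each with 5 bases to either side, read from the plus strand of GRCm38. Capitals mark bases that match 1 of the 12 fixed positions of the consensus. Those at Per1, Psme4, Ptprt, Islr, Sv2c and Dynlt1b belong to the sites with the strongest MR washout peaks among those over 1000 bp from every MR CORT summit.
Per1, chr11:69097071-69097095: ccaagAGAACAcgaTGTTCcctagt
Psme4, chr11:30771450-30771474: ggcctAGAACtcttTGTgCTcatac
Ptprt, chr2:161795294-161795318: aagcagGAACAgggTGTcCTgccag
Dynlt1b, chr17:6424727-6424751: gcctgAGAACAcacTGTcCcacccc
Islr, chr9:58202890-58202914: gactcgGgACtcgcTGTTCTctttg
Sv2c, chr13:96125113-96125137: agtacAGAACgctgTGTcCctggaa
The next 2 come from the strongest sites within 200 bp of an MR CORT summit.
Iqsec2, chrX:152168307-152168331: ggccagGcACAgctTGTTCTagcac
Por, chr5:135656210-135656234: ttaacAGAACAttgaGTcCTggcct
The sites near Tuba1c and Spry2 are shown for GREs under strong GR peaks, and 4 other members with a strong GR peak had none near the MR washout summit: the best match had 4 mismatches at Slc38a7, 5 at Gm10717 and Gm21738 and 6 at Rpusd4.
Spry2, chr14:105732320-105732344: tttctAGgACAcggTGcTCTctgct
Tuba1c, chr15:98992199-98992223: tcactgGAACAgtcTGaaCTgcttg
For contrast, the best matches at strong MR washout peaks at Ivd and near Gm21060, with 5 mismatches, and at the strong GR peak of Slc38a7 were not counted as a GRE.
Ivd, chr2:118875611-118875635: acgtgAcAcCAtgtaGcaCTgttag
Gm21060, chr19:61266654-61266678: aaaccAatACAgatcGcTCacgcgc
Slc38a7, chr8:95852337-95852361: aagagAGAAgtgcaaGTgCTctggg

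A site was counted as holding a GRE when at most 3 of the 12 fixed positions differed. Within 100 bp of the MR washout summit, 89 of 234 sites (38.0%, 32.1 to 44.4) held one, against 1299 of 2749 (47.3%) of the GR sites with an MR peak after both CORT and washout. Windows of the same length 1000 bp to either side of the members' GR summits held one in 15.8%. The best match had 1 mismatch at 6 sites, 2 at 30, 3 at 52 and 4 at 97, and the single full match lay in an intron of Hk2, which encodes the glycolytic enzyme hexokinase 2. That site was singled out after its value was seen.
Hk2, chr6:82771249-82771273: gctcaAGAACAattTGTTCTtacca
Over the 178 half-sites of the 89 elements, read as TGTTCT, the G at position 2 matched in 94.9%, the C at position 5 in 89.9% and the T at position 3 in 88.8%. The T at position 4 matched in only 58.4% and the T at position 6 in 63.5%. The elements were chosen for their likeness to the consensus, so these shares describe which positions varied.

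The distances separated near misses from sites with no MR CORT peak nearby. From the GR summit, the nearest MR CORT summit lay at most 100 bp away at 12 sites, at most 200 bp at 38 (16.2%) and at most 1000 bp at 72. At 162 of 234 sites (69.2%) it lay over 1000 bp away (157 of 227 without 7 sites that overlapped calls in control libraries, described below), at 96 over 10000 bp and at 32 over 100000 bp. The median was 4623 bp (95% interval 2647 to 8379) and the range ran from 60 to 1459209 bp, the farthest near Mrpl15. Counted from the MR washout summit, 39 sites lay within 200 bp and the same number, 162, beyond 1000 bp.

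These distances were close to those of GR sites that had no MR peak in either list. Of those 3889 sites, 11.7% lay within 200 bp of an MR CORT summit and 69.9% beyond 1000 bp, with a median of 6680 bp. Among GR sites without an MR CORT peak, the share with an MR washout peak was 7.71% (5.67 to 10.4) within 200 bp of an MR CORT summit. It was 4.55% (3.27 to 6.28) from 200 to 1000 bp, 6.85% from 1000 to 5000 bp and 5.40% (3.48 to 8.28) from 5000 to 10000 bp. From 10000 to 100000 bp it was 4.54% (3.57 to 5.76), and beyond 100000 bp 7.36% (5.26 to 10.2). The share did not fall steadily with distance.

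**Figure D1:**
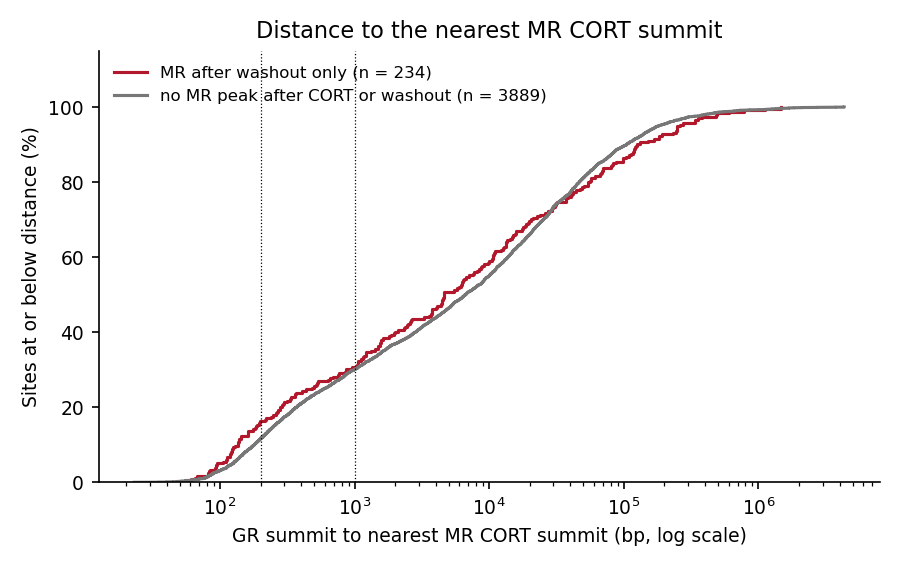
Cumulative share of sites (y, %) by distance from the GR summit to the nearest MR CORT summit (x, bp, log scale), for the 234 sites with MR after washout only and the 3889 GR sites with no MR peak. Dotted lines mark 200 and 1000 bp, below which 38 and 72 of the 234 sites lie, and both curves run close together.

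The 38 near misses lay beside MR CORT peaks of ordinary strength. The gap between the GR peak and the MR CORT peak was 1 to 123 bp with a median of 23 bp, and the MR CORT peak had a median −log10 p of 7.83 (range 5.20 to 23.7), against 9.17 in the whole MR CORT list. At 18 sites (7.69%) the MR washout peak itself overlapped an MR CORT peak that stopped short of the GR peak, and at 216 it did not. The clearest case was an intron of Iqsec2, which encodes a guanine exchange factor for ARF GTPases at synapses. There the MR washout peak, the strongest of the set with a −log10 p of 27.6, shared 3 bp with the GR peak (−log10 p 9.99), and its summit lay 1 bp from an MR CORT summit (−log10 p 23.7) but 124 bp from the GR summit. MR was thus called in nearly the same place after CORT and after washout. A weaker MR washout peak, farther from the MR CORT peak, overlapped the GR peak as well.

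A shift of a few bases decided membership at the edge of the rule. The sites near Calm2 (chromosome 17, 87514032 to 87514112) and in Myo16 (chromosome 8, 10611796 to 10611876) were members with an MR CORT peak 1 bp away, while GR peaks at Tbc1d16 and Gnao1 shared 1 bp with an MR CORT peak and were not. In all, 32 members had an MR CORT peak edge within 50 bp. At the other edge, the site in Abi1 shared 3 bp and that in Slc37a1 5 bp with an MR washout peak. A GR peak at the metallothionein gene Mt2 touched an MR washout peak without sharing a base, and 1 at Wwc2 lay 1 bp from it. There were 40 such GR sites within 50 bp of an MR washout peak.

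At most members the summits of the receptors lay close together, as the overlap of their peaks set by the rule largely requires. The same overlap defines the sites compared with them here. The GR CORT and MR washout summits were a median of 27 bp apart (20 to 31), and 172 of 234 pairs (73.5%) were within 50 bp. GR sites that kept an MR peak from CORT to washout had the same median of 27 bp and a share of 71.5%. Of all GR CORT peaks, 28.2% overlapped an MR washout peak. Each of 229 members overlapped 1 MR washout peak, and 5 members overlapped a pair.

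The strongest members away from MR CORT peaks named the clock gene Per1, a repressor in the core circadian loop and a well known glucocorticoid target. Its site (chromosome 11, 69097012 to 69097135) lay in an intron 1862 bp from the Per1 start and also within 5 kb of Vamp2, which encodes a vesicle SNARE. GR reached a −log10 p of 15.7 after CORT and MR 16.5 after washout, with summits 3 bp apart, and the GRE printed above, with 1 mismatch, was centred 1 bp from the MR summit. The nearest MR CORT summit was 2339 bp away, in a peak with a −log10 p of 15.1. Per1 therefore had an MR peak after CORT, at another place in or near the gene.

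Psme4, which encodes a proteasome activator, had its site (chromosome 11, 30771420 to 30771527) 265 bp upstream of the start. GR reached 17.2 and MR washout 15.1 on the −log10 p scale, and no MR CORT summit lay within 190449 bp. The Dynlt1b site (chromosome 17, 6424676 to 6424758), near a gene for a dynein light chain, had values of 12.6 for GR and 13.2 for MR washout and was 262763 bp from the nearest MR CORT summit. Both sites stood far from any MR CORT call.

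Of the other strong members over 1000 bp from MR CORT, the site in Islr had a GR −log10 p of 8.66 and an MR washout −log10 p of 16.2, that near Gm21060 had 12.8 and 16.2, and that in Ivd, which encodes an enzyme of leucine breakdown, 8.66 and 14.7. The site in Ptprt, a receptor tyrosine phosphatase gene, had 9.99 and 14.6, and that in Sv2c, which encodes a synaptic vesicle protein, 8.19 and 13.6. At P2ry2, a purinergic receptor gene, the values were 8.32 and 13.6, and near Usp24, a deubiquitinase gene, 11.4 and 13.2. The site in Mettl16, an RNA methyltransferase gene, tied with Usp24 and Dynlt1b at 13.2 for MR washout and ranked after them by its GR value of 9.99. GREs by the rule above were found at Islr, Ptprt, Sv2c and Usp24 and not at Gm21060, Ivd, P2ry2 or Mettl16. The Gm21060 site also carried border pairs of MR CORT and MR washout, that is, pairs of exonuclease stop positions called by MACE, a separate method. Of the 234 members, 13 had an MR CORT border pair (11.5% of the GR CORT list), 15 an MR washout one (4.35%) and 6 an MR vehicle one (0.587%). Members were chosen by MR CORT and MR washout peaks of the same libraries, so these shares are descriptions.

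By GR strength the leading members were a site near Rpusd4 with a −log10 p of 24.9, an intron of Slc38a7, a glutamine transporter gene, with 19.8, and sites at Gm10717 and near Tuba1c, an alpha-tubulin gene, with 18.7 each. MR washout reached 8.73 at Rpusd4, 8.41 at Slc38a7, 19.6 at Gm10717 and 7.07 at Tuba1c. After Psme4 came the sites at Gm21738 (17.02) and near Spry2 (16.7), which encodes an inhibitor of receptor tyrosine kinase signalling. Per1, Abhd2 (15.7) and Lnx1 (15.3) closed the first 10. Strong GR and strong MR did not go closely together: across the 234 sites, whose values all come from the same GR and MR lists, Spearman's rho of the −log10 p values was 0.21, given as a description. The remaining named near sites were close to Trib2 (GR 11.4, MR washout 17.8, 271 bp from an MR CORT summit) and Por, which encodes the electron donor of cytochrome P450 enzymes (8.75 and 16.7, 113 bp).

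**Figure D2:**
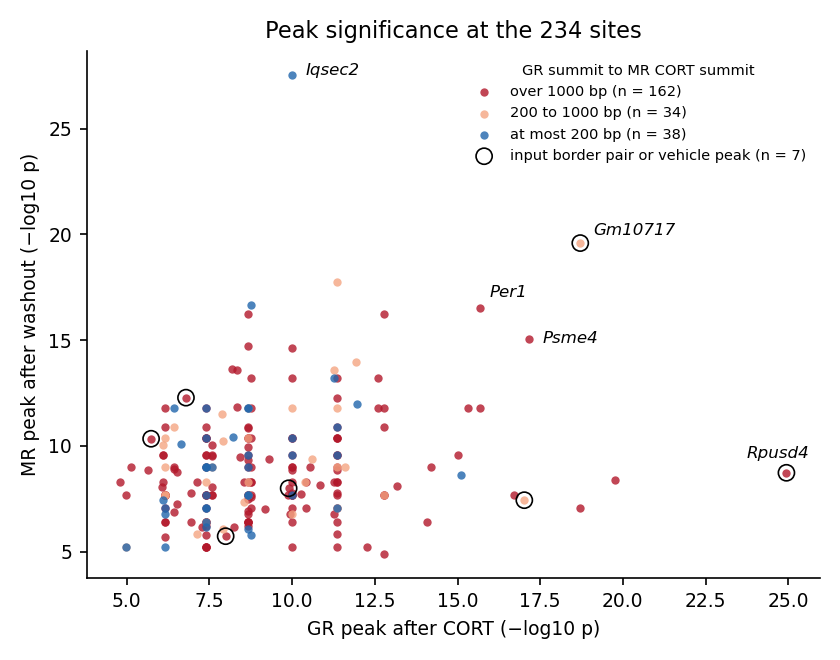
Each point is 1 of the 234 sites, with the GR −log10 p after CORT (x) against the MR −log10 p after washout (y), coloured by distance to the nearest MR CORT summit and ringed where an input border pair or a vehicle peak overlapped. The MR values of the near and far sites overlap, and of the 7 ringed sites Rpusd4 has the highest GR value, 24.9.

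Some of these strong peaks lay where control libraries also had calls. An input border pair overlapped 7 members (2.99%), among which 4 also had a GR vehicle peak and 1 an MR vehicle peak, against 0.814% of all GR CORT peaks with any of these. The 7 were the sites at Gm10717, Gm21738 and Gm11168, near Rpusd4 and Ly6c2, and a pair in Def8. Within 100 bp of the summit, repeats covered 98.0% of the bases at Gm10717 and Gm21738, 84.6% at Gm11168 and 100% at Rpusd4, but 13.4% at Ly6c2 and 0% and 10.9% at the pair in Def8. Over the members, 8.97% of summits lay in a repeat, against 6.70% of the GR CORT list. Leaving them out kept 227 members.

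Members had weaker GR peaks than sites where MR stayed and stronger ones than sites without MR. The GR −log10 p had a median of 8.66 (range 4.79 to 24.9) at members, 7.38 at the 3889 GR sites without MR, 12.1 at the 2749 GR sites with MR after both CORT and washout, and 8.76 at the 3695 with MR after CORT only. Of the members, 135 of 234 (57.7%, 51.3 to 63.8) reached the median of the GR CORT list, as 60% of that list did because many peaks share the median value. The share was 39.2% at sites without MR and 84.8% where MR stayed. Without the sites that overlapped control calls, it was 57.7% at members and 39.2% at sites without MR. GR peak width moved with strength, with medians of 113 bp at members, 96 bp without MR and 179 bp where MR stayed, and a wider peak has more bases to share. Strength belongs to the list that chose the sites and was not tested between groups.

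For MR, members also had weaker peaks than sites where MR stayed. The MR washout −log10 p had a median of 8.28 (range 4.90 to 27.6) at members and 10.5 where MR stayed. Where a GR peak overlapped several MR washout peaks, the strongest was taken. GR peaks were wider where MR stayed (median 179 bp, against 113 bp at members), and the effect of this choice was not tested. MR washout peaks with neither a GR CORT nor an MR CORT peak, which are not among the GR sites, had a median of 7.69. Among members it was 9.01 (range 5.21 to 27.6) at the 38 near misses and 8.28 (range 4.90 to 16.5) at the 162 sites beyond 1000 bp, so their ranges overlapped. These values come from the list that chose the sites and were not tested.

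An MR washout peak was more frequent at stronger GR peaks, with or without an MR CORT peak. In 5 bands of GR −log10 p from weak to strong, 3.36%, 4.81%, 5.38%, 15.0% and 16.6% of GR sites without an MR CORT peak had an MR washout peak. The last 2 bands held 46 of 307 and 24 of 145 sites, with intervals of 11.4 to 19.4 and 11.4 to 23.4. Of the sites with an MR CORT peak, 21.8% had an MR washout peak in the weakest band and 68.1% in the strongest. In every band the share was lower without an MR CORT peak, and over all bands 42.7% of sites with one kept MR after washout. As these shares use the calls that define the sites, they are descriptions.

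**Figure D3:**
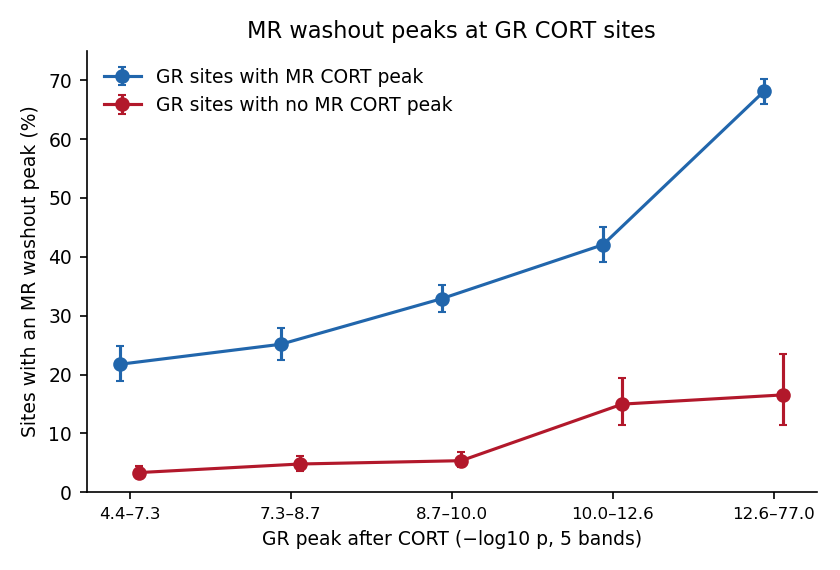
Share of GR CORT sites with an MR washout peak (y, %) in 5 bands of GR −log10 p (x), for sites with and without an MR CORT peak; bars are 95% Wilson intervals. Without an MR CORT peak the share goes from 3.36% in the weakest band to 16.6% in the strongest.

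GREs around the GR summit were less frequent at members than where MR stayed. A GRE lay within 100 bp of the GR summit at 85 of 234 members (36.3%, 30.4 to 42.7), against 37.7% of all GR CORT peaks. It was found at 47.3% of sites where MR stayed (odds ratio 0.636, two-sided Fisher's exact test, adjusted p = 0.0104 over 16 tests) and at 30.2% of those without MR (1.32, adjusted p = 0.183, not past 0.05). In windows of the same length centred 1000 bp to either side, 15.8% held a GRE at members and 14.5% over the GR CORT list. Leaving out the 7 sites with control calls gave odds ratios of 0.649 and 1.38.

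Both comparisons moved with the motif's stringency. With at most 2 mismatches, 35 members (15.0%) held a GRE, against 7.74% of sites without MR (odds ratio 2.097, two-sided Fisher's exact test, adjusted p = 0.00244) and 15.8% where MR stayed (0.941, adjusted p = 0.998). Of the 162 members over 1000 bp from MR CORT summits, 66 (40.7%) held a GRE with at most 3 mismatches. They were set against all sites without MR and all sites where MR stayed, neither group limited by distance. The odds ratios were 1.59 (Fisher's exact test, adjusted p = 0.0846) and 0.766 (adjusted p = 0.283). Within bands of equal GR strength, with at most 3 mismatches, the odds ratio against sites where MR stayed was 0.684 (exact stratified test, adjusted p = 0.0703). Against sites without MR it was 1.23 (exact stratified test, adjusted p = 0.424). The contrast with sites where MR stayed was therefore not past the threshold in any of these 3 settings.

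The GRE lay closer to the MR washout summit than to the GR summit. When the nearest GRE was taken within 100 bp of each summit, its centre was a median of 14 bp (9 to 19) from the MR washout summit at 89 members and 27 bp (17 to 37) from the GR summit at 85. It lay within 20 bp of the MR summit in 61.8% (51.4 to 71.2) and of the GR summit in 43.5% (33.5 to 54.1). Where MR stayed, the medians were 16 and 21 bp. MR washout peaks were narrower, with a median of 62 bp at members against 113 bp for GR, and these distances were not tested.

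**Figure D4:**
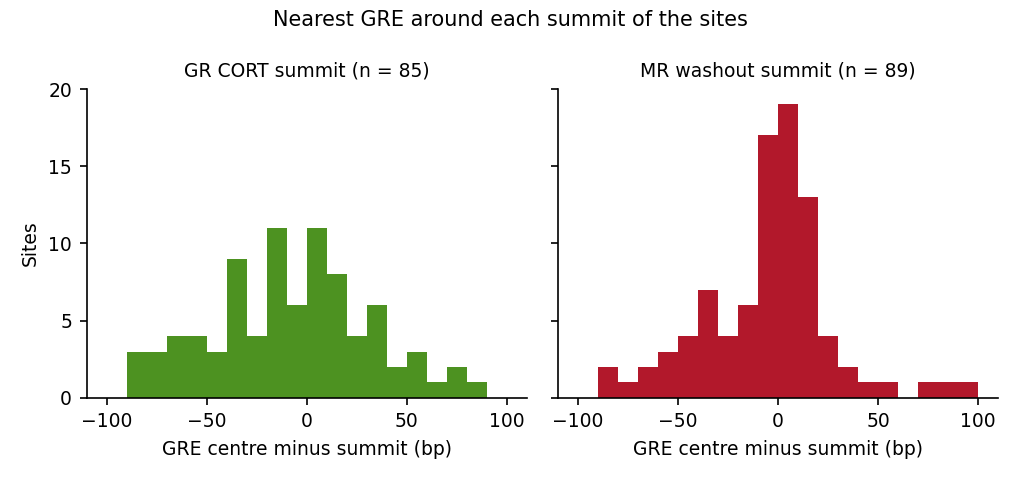
Number of members (y) by the position of the nearest GRE centre relative to the GR CORT summit (left) or the MR washout summit (right), in bp (x), in bins of 10 bp. The elements gather within 20 bp of the MR summit at 55 of 89 members, and of the GR summit at 37 of 85.

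Motifs of other factors were found at members about as often as at other GR sites. AP-1, the dimer of Fos and Jun proteins (TGACTCA or TGAGTCA), was found at 8.97% of members, against 8.73% of the GR CORT list, and NF-1 (TTGGC and GCCAA with 5 bases between them, at most 2 mismatches) at 10.7%, against 9.29%. The GATA factor motif, AGATAA, was found at 15.0%, against 11.5% of the list, and Phox2a, a homeodomain factor of sympathetic neurons, at 4.70%, against 3.3%. Both strands were searched. None of the 8 comparisons with sites without MR or with sites where MR stayed passed the two-sided Fisher's exact test after adjustment. The nearest to it was GATA against sites without MR, with 10.3% there and an odds ratio of 1.54 (Fisher's exact test, adjusted p = 0.112), which became 2.13 (22 members, adjusted p = 0.0219) within 50 bp of the summit. In flanking windows of members, the shares were 2.99% for AP-1, 5.77% for NF-1, 10.5% for GATA and 2.35% for Phox2a. At 102 members (43.6%) none of the 5 motifs was found, against 43.4% of the GR CORT list.

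**Figure D5:**
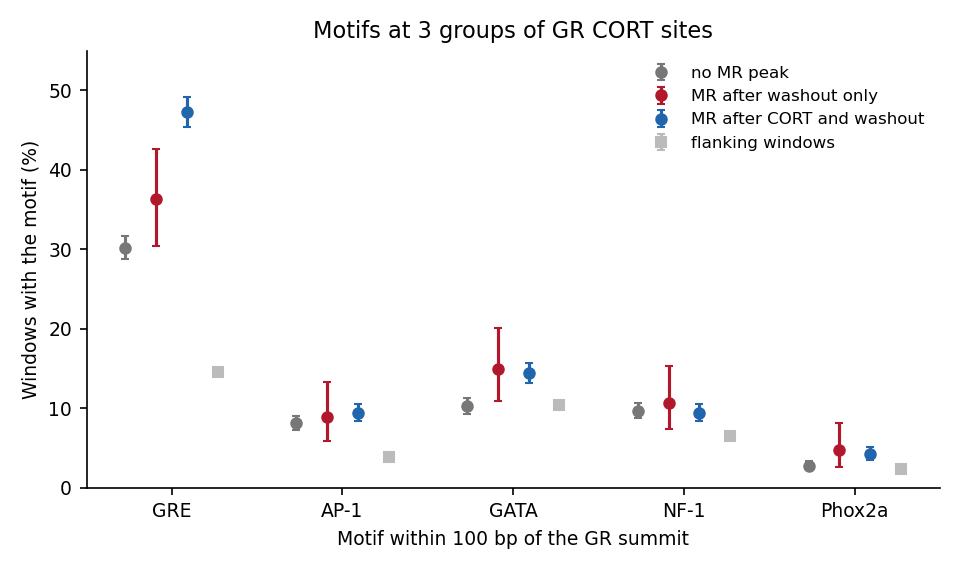
Share of windows of 100 bp to each side of the GR summit that held each motif (y, %), for GR sites without MR, with MR after washout only, and with MR after CORT and washout, and for windows flanking all GR CORT peaks; bars are 95% Wilson intervals. For the GRE, members (36.3%) lie between the other groups (30.2% and 47.3%), and for each other motif the interval of members overlaps those of both groups.

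Few members kept a GR peak after washout. A GR washout peak overlapped 6 of 234 members (2.56%, 1.18 to 5.48), against 2.01% of the GR CORT list. The share was 0.231% at sites without MR (odds ratio 11.3, two-sided Fisher's exact test, adjusted p = 0.00163) and 6.37% where MR stayed (0.387, adjusted p = 0.0800). Of the 6, 5 overlapped control calls, namely those at Gm10717, Gm11168 and Gm21738 and near Rpusd4 and Ly6c2. Their GR washout −log10 p ran from 11.3 to 26.8. The remaining one, 29040 bp from the start of Sim2, a transcription factor gene, had a GR washout −log10 p of 10.5, an MR washout −log10 p of 10.4 and a GR summit 95 bp from an MR CORT summit. With control calls left out on both sides, 1 of 227 members (0.441%) had a GR washout peak. The odds ratio against sites without MR was then 8.56 (Fisher's exact test, adjusted p = 0.419), and that against sites where MR stayed was 0.0852 (adjusted p = 0.00600). Within bands of equal GR strength, with control calls kept in, the odds ratio against sites where MR stayed was 0.918. It did not pass the exact stratified test.

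By GENCODE M21, 106 members lay in introns, 13 in coding exons, 10 in untranslated exons, 5 in non-coding exons, 16 within 5 kb upstream and 3 within 5 kb downstream of a protein-coding gene, and 81 farther away. Coding exons held 5.56% (3.28 to 9.27) of members, 4.85% (11 of 227) without the sites with control calls, and 2.77% of the GR CORT list, introns 45.3% and 51.2%. A protein-coding start lay within 1 kb at 15 members (6.41%, and 14 of 227 without control calls), against 7.23% of the list. That share was 8.69% without MR (odds ratio 0.720, two-sided Fisher's exact test, adjusted p = 0.635) and 5.35% where MR stayed (1.21, adjusted p = 0.865). Within 5 kb of a start, the share of members was 23.5%, against 15.6% where MR stayed (odds ratio 1.66, Fisher's exact test, adjusted p = 0.0158). It was 20.3% at sites without MR (odds ratio 1.21, Fisher's exact test, adjusted p = 0.485), so members were not set apart from those. Of the members, 54 (23.1%, and 53 of 227 without control calls) were over 5 kb from every annotated gene, as were 21.8% of the list, and neither comparison passed Fisher's exact test (adjusted p = 0.866 and 0.936).

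The 153 members in or within 5 kb of protein-coding genes fell at 147 genes. At 117 of these genes (79.6%, 72.4 to 85.3) an MR CORT peak lay elsewhere in or within 5 kb of the gene. The same was so at 67.8% (65.6 to 69.9) of the 1824 genes at GR sites without MR, a difference that was not tested. Counted by site, the shares were 79.7% (72.7 to 85.3) of 153 members and 76.3% (74.7 to 77.9) of 2685 sites without MR. Angpt2, Cradd, Def8, Dlc1, Lpin3 and Trim44 each had a pair of members. In an intron of Lpin3, a phosphatidate phosphatase gene, the pair lay 324 and 513 bp from the start, with GR −log10 p of 11.4 and 14.2 and MR washout −log10 p of 6.42 and 9.01, and the nearest MR CORT summit was over 100000 bp away. At Angpt2, which encodes a ligand of the endothelial Tie2 receptor, the pair lay 357 and 57 bp from the start in exons, with GR values of 7.92 and 6.94 and MR washout values of 10.2 and 7.77. The pair at Trim44 shared 1 MR washout peak and counts as 2 members.

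Members at genes of 8 lists of neuronal and hormone-response genes were few. Of 280 listed genes 9 had a member, and 8 members (3.42%) lay at a listed gene, against 3.47% of the GR CORT list. Glucocorticoid response genes had 3 members, or 1.28% against 0.719% of the list, at Per1, Cdkn1a and Gadd45b. The site in Cdkn1a, which encodes the cell cycle inhibitor p21, had a GR −log10 p of 6.15 and an MR washout −log10 p of 9.01 and lay 313 bp from a strong MR CORT summit (−log10 p 36.7). The site downstream of Gadd45b, a stress response gene, had values of 11.4 and 7.05 and was 863 bp from an MR CORT summit (18.0). Of these 3 genes, a GRE by the rule above was found only at Per1.

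Synaptic vesicle and exocytosis genes also had 3 members (0.426% of the list), at Sv2c, at Erc1, which encodes an active zone scaffold, and at the Per1 site beside Vamp2. At Erc1 the GR −log10 p was 11.4 and the MR washout −log10 p 9.57, with the nearest MR CORT summit 22780 bp away. Axon guidance genes had 2 (0.852% of the list): Plxnc1, a semaphorin receptor gene (6.15 and 6.76), and Unc5c, a netrin receptor gene (8.66 and 7.69), which were 84 and 486 bp from an MR CORT summit. Nfix, an NF-1 family gene, had 1 (10.4 and 8.28, 298 bp; 0.303% of the list), and Per1 was the only clock gene (0.151%). Lists of potassium and calcium channels (0.435%), receptor chaperones and cofactors (0.18%) and sympathetic neuroblast factors (0.502%) had 0 members.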

How the data were processed

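Per the labels, reads were aligned to mm10 with Bowtie2 and peaks called with MACS2 2.1.1.20160309 by the authors, against input, with replicates combined. The deposited MACS2 values were −log10 p, −log10 q (under a shifted heading), an integer score derived from q, and the summit offset. No fold enrichment was found in the columns, so −log10 p was the measure of strength. The authors' MACE border pair lists, with a deposited p-value except in the GR CORT list, were used only as overlaps; 8 of the 9 carry a record on the heading line, which was kept. Read counts and library depths were not used here.

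Sequences came from the GRCm38 RefSeq genome and genes from GENCODE M21, the build of the files. Overlaps of at least 1 bp, summit distances and motif matches in windows of 100 bp to each side were computed with Python 3.11.15, numpy 2.4.6, pandas 2.3.3, pysam 0.24.0 and scipy 1.17.1. A GRE had at most 3 mismatches, NF-1 2 and Phox2a 1. Groups were compared by two-sided Fisher's exact tests with Benjamini-Hochberg adjustment over 16 tests, and shares have 95% Wilson intervals, which reflect counting error and nothing else. A planned test of GR strength was dropped, after its values were seen, because strength belongs to a list that the rule used. A gene was assigned to a member by its summit, within 5 kb, or by the nearest start. Where a GR peak overlapped several MR washout peaks, the strongest gave its MR washout summit and −log10 p. Overlap, distance, motif search and tests were first tested on simulated data.

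Named members were the first 10 by MR washout strength, by GR strength, by MR washout strength beyond 1000 bp from MR CORT, those with a GR washout peak and those at listed genes, with ties ordered by GR strength. The members and lists were chosen with earlier results of these data known. Alternatives varied the overlap rule, the q threshold, the motif window and mismatches, repeats, GR strength bands, the distance to a start and sites with control calls, and a few were chosen after seeing the data: the motif comparisons without control calls and GR strength at the upper quartile.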

Additional observations from a re-analysis of the deposited data

Results flagged for a closer look

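MACE border pairs, which the comparisons did not use, gave signal of the same receptor at some sites. An MR CORT border pair overlapped 13 of the 234 sites (5.56%, 95% Wilson interval 3.28 to 9.27) although no MR CORT peak did, against 11.5% of all GR CORT peaks and against 6 of 234 (2.56%) with an MR vehicle border pair. Without the 7 sites that overlapped an input border pair or a vehicle peak, 8 of 227 had an MR CORT border pair and 0 an MR vehicle one. Of the 162 sites over 1000 bp from MR CORT summits, 10 had an MR CORT border pair, and 6 of 157 without those sites, among them the site near Gm21060.

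An MR washout border pair overlapped 15 of the 234 sites (6.41%), against 4.35% of all GR CORT peaks. Without the sites with control calls it was 8 of 227 (3.52%), among them those near Gm21060 and Dynlt1b. All members had an MR washout peak by the rule, against 28.2% of the GR CORT list, and none had an MR CORT peak. The border pairs came from the same libraries, so the shares of both are descriptions with no test. Why the 2 callers differed at these sites was not tested.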

How the results depend on the processing

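Of 106 alternative values of the tests, 89 kept their direction. The setting beyond 1000 bp limited only the members by distance, not the groups compared with them. The 234 sites became 361 with summits within 100 bp in place of overlap, 36 with −log10 q of at least 5 for GR CORT and MR washout, and 129 with it in all 3 lists. Under the q threshold for GR CORT and MR washout, 23 sites lay beyond 1000 bp and 7 within 200 bp, and 18 lay within 200 bp when MR CORT alone was held to it. Causes were not tested.

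Against sites without MR, the GRE odds ratio passed the test within 50 bp (1.57), with 1 mismatch fewer (2.097) and under the q threshold (2.95), as did GATA within 50 bp (2.13). The GRE did not pass in strength bands (1.23). Against sites where MR stayed, the GRE no longer passed within 200 bp (0.714), with 1 mismatch fewer (0.941), beyond 1000 bp (0.766) and in strength bands (0.684), and turned under the q threshold (1.501, 22 of 36 sites, adjusted p = 1 by Fisher's exact test). Odds ratios that turned without passing a test were, against sites where MR stayed, AP-1 within 200 bp (1.01) and in bands (1.05), GATA within 200 bp (0.893), in bands (0.914) and under the q threshold (0.795), Phox2a in the same 3 settings (0.999, 0.941, 0.655), NF-1 with 1 mismatch fewer (0.687) and beyond 1000 bp (0.913), and distance over 5 kb from genes under the q threshold (0.960). Against sites without MR they were AP-1 beyond 1000 bp (0.983) and under the q threshold (0.639), NF-1 with 1 mismatch fewer (0.977) and beyond 1000 bp (0.879), and starts within 5 kb (1.21). The last passed against sites where MR stayed (1.66). GR washout peaks against sites without MR no longer passed in bands (5.14), beyond 1000 bp (8.13), under the q threshold (2.51) or without control calls (8.56), where the contrast with sites where MR stayed passed (0.0852). In bands, the contrast with sites where MR stayed was 0.918 and did not pass.

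No paired analysis was possible because the labels carry no replicate numbers and each condition has 1 list of combined replicates. For the same reason no replicate was left out. Read counts per peak were not part of the lists, so a missing peak is no measure of absence. The share of members with a strong GR peak, a description, was 57.7%, and 22.6% with the upper quartile of the list as the bound. Under the q threshold every GR peak passed the median, so that share had no meaning there.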
